A study of Mus musculus with 12 samples.

Results

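The small heat shock proteins are the subject here, described by the RNA levels of 7 of their genes (Hspb1, Hspb2, Hspb3, Hspb6, Hspb7, Hspb8 and Cryab) in a muscle cell line in which an inhibitor of p38 MAP kinase was combined with induction of the muscle transcription factor myogenin. The rule that picks the genes uses their names and no measured value, but it was set with earlier results of these data known. They were found on the array as transcript clusters annotated to 1 of these symbols alone. All 7 were found, with 8 clusters, among 19938 genes with 21789 such clusters. Hspb1 had 2 clusters, and the one with the higher mean over the 12 arrays stands for the gene.

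Small heat shock proteins are ATP-independent chaperones that share a crystallin domain and assemble into oligomers. They bind unfolding proteins and hold them soluble until other chaperones refold or remove them. In skeletal muscle they sit on the cytoskeleton and at the Z-disc, and mutations in several of them cause myopathy or motor neuropathy. Hspb1 (mouse Hsp25, human HSP27) is a textbook substrate of the kinase MK2, which p38 activates, and its phosphorylated form breaks into smaller oligomers and acts on actin. The arrays measured RNA and not phosphorylation.

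C2i-Myog cells are a stable line made from mouse C2C12 myoblasts, with a Flag-tagged Myog cDNA under doxycycline control. The labels do not say whether the line is 1 clone. All 4 groups were this line, taken near confluence into differentiation medium (DMEM with 1% horse serum and insulin and transferrin at 10 µg/mL each) for 48 h. The sample details also list 10% fetal calf serum for all 4 groups. Control cells had nothing added, Dox cells had 0.2 µg/mL doxycycline, SB cells had 10 µM SB203580, which inhibits p38α and p38β, and SB+Dox cells had both, each from the start of differentiation. The label of the control arrays does not mention differentiation, and their 48 h is taken from the treatment protocol given with every sample. Each group had 3 arrays, numbered as in the titles, and the labels do not say whether they were separate cultures. The p-values therefore measure the spread between these arrays, which may be technical. No cells without the transgene received doxycycline, so the drug and the induced Myog cannot be told apart.

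Skeletal muscle markers were present, with a mean log2 signal over 10 genes of 10.01 to 10.39 on the control arrays. Myog itself measured 9.91 ± 0.26 (log2, SD, n = 3) in control and 10.37 ± 0.05 in Dox, against 7.70 ± 0.68 in SB and 8.33 ± 0.30 in SB+Dox. Doxycycline changed it by 0.46 when given alone (limma adjusted p = 0.467) and by 0.64 beside the inhibitor (adjusted p = 0.157), neither past the threshold, so the Dox groups are named here by their labels. Signal from the cell's own Myog gene and from the induced cDNA cannot be told apart here.

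Promoter sequences are shown for the 3 members whose patterns differed most plainly, Hspb1, Hspb8 and Hspb6. The promoter table used, taken from RefSeq (GRCm38.p6), gave windows for 5 of the 7 members, and promoters of Hspb2 and Cryab were not analysed here. The 250 bases upstream of each start are printed 5′ to 3′ on the gene's strand. Capitals mark the heat shock element core GAANNTTC, the E-box CANNTG, which bHLH factors such as myogenin can bind, and the TATA box TATAAA. The Hspb1 window lies at chr5:135887669-135887918 (+ strand), that of Hspb8 at chr5:116422865-116423114 (- strand), and those of the 2 Hspb6 starts at chr7:30552290-30552539 and chr7:30553051-30553300 (+ strand).
Hspb1: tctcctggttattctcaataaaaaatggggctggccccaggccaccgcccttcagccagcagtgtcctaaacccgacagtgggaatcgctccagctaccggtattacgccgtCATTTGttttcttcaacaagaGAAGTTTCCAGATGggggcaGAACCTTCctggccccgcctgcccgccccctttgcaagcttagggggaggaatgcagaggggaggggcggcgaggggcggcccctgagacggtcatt
Hspb8: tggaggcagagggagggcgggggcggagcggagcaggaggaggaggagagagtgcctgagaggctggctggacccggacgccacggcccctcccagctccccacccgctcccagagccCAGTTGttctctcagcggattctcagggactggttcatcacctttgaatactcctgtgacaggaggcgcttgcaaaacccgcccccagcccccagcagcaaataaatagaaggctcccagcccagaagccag
Hspb6, start 1: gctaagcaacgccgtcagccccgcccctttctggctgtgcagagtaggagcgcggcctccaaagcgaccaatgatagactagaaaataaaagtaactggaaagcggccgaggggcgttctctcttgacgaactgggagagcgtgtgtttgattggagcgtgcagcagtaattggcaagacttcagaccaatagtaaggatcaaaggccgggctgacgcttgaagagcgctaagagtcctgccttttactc
Hspb6, start 2: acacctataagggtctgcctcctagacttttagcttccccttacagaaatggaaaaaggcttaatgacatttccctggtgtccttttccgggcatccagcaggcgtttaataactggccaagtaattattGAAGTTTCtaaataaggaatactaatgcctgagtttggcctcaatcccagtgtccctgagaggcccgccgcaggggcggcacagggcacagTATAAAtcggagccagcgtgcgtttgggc

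The Hspb1 window held GAANNTTC at 117 bases and again at 97 bases before the start, with E-boxes at 138 and 109 bases. Windows of 300 bases (250 before and 50 after the start) were searched on both strands. GAANNTTC occurred in 7.86% of the 32851 windows in the table and at least 2 times in 0.344% of them. CANNTG occurred in 72.3% of windows and TATAAA in 13.6%. Hspb8 had 1 E-box, 132 bases before its start, and a GAANNTTC just after the start, outside the printed part. At Hspb6, start 2 had GAANNTTC at 120 bases and TATAAA at 29 bases, and start 1 had none of these motifs. In the windows not printed, Hspb3 held 1 GAANNTTC, 2 E-boxes and a TATAAA, and Hspb7 held 1 E-box. The related letters TTCNNGAA (8.52% of windows) and the E-box form CAGCTG (16.3%) were in no member's window. A match describes letters in these windows, not a bound site.

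SB203580 without doxycycline lowered 4 of the 7 genes, Hspb1, Hspb2, Cryab and Hspb6, by 1.4-fold to 1.75-fold, and raised 0. A gene counts as changed at a limma adjusted p under 0.05 over all 21789 clusters. In that comparison 3.87% of all clusters fell and 2.51% rose, or 6.38% in all. The median log2 change of the 7 genes was -0.49, beside 0.03 over all clusters. The count was 1 without control replicate 1 and 1 without control replicate 2, when Hspb1 alone passed.

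Doxycycline in the presence of the inhibitor (SB+Dox against SB) raised 2 of the 7, Hspb8 and Cryab, and lowered 0, while 4.4% of all clusters rose and 2.71% fell (7.11% in all). The members' median was 0.17, beside -0.04 over all clusters. With the replicate block, which bears on this comparison because same-numbered SB and SB+Dox arrays deviated together, the count was 3, Hspb2 being added, and 1200 clusters rose and 772 fell. The overall split of 959 higher and 591 lower became 1302 and 415 with each array centred on its median, and 851 and 800 after quantile normalization. The members' count was 0 without SB replicate 1 or SB+Dox replicate 2, and 1 without control replicate 1, Dox replicate 1, SB+Dox replicate 1 or SB+Dox replicate 3.

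Between the 2 groups that received doxycycline (SB+Dox against Dox), Hspb8 was higher and Hspb1 and Hspb7 were lower, while 6.97% of all clusters rose and 3.43% fell (10.4% in all). The count of 3 became 1, with Hspb8 alone, without Dox replicate 2 or SB+Dox replicate 1. Doxycycline alone (Dox against control) lowered 1 member, Hspb6, and raised 0, against 3.88% and 1.43% of all clusters (5.31% in all). The count was 0 without control replicate 1. SB+Dox against control had Hspb8 higher and Hspb1, Hspb6 and Hspb7 lower, against 2.84% and 2.42% of all clusters (5.26% in all). That count of 4 was 1 without control replicate 1, and 2 without control replicate 2, SB+Dox replicate 1 or SB+Dox replicate 2.

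The interaction, which asks whether the doxycycline change differed with and without the inhibitor, passed for 0 of 7 members and for 0.895% of clusters. At an unadjusted p under 0.05 it had 2 members, Hspb8 and Hspb6, beside 11.4% of all clusters. These comparisons share arrays, so their counts are not independent of each other.

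**Figure D1:**
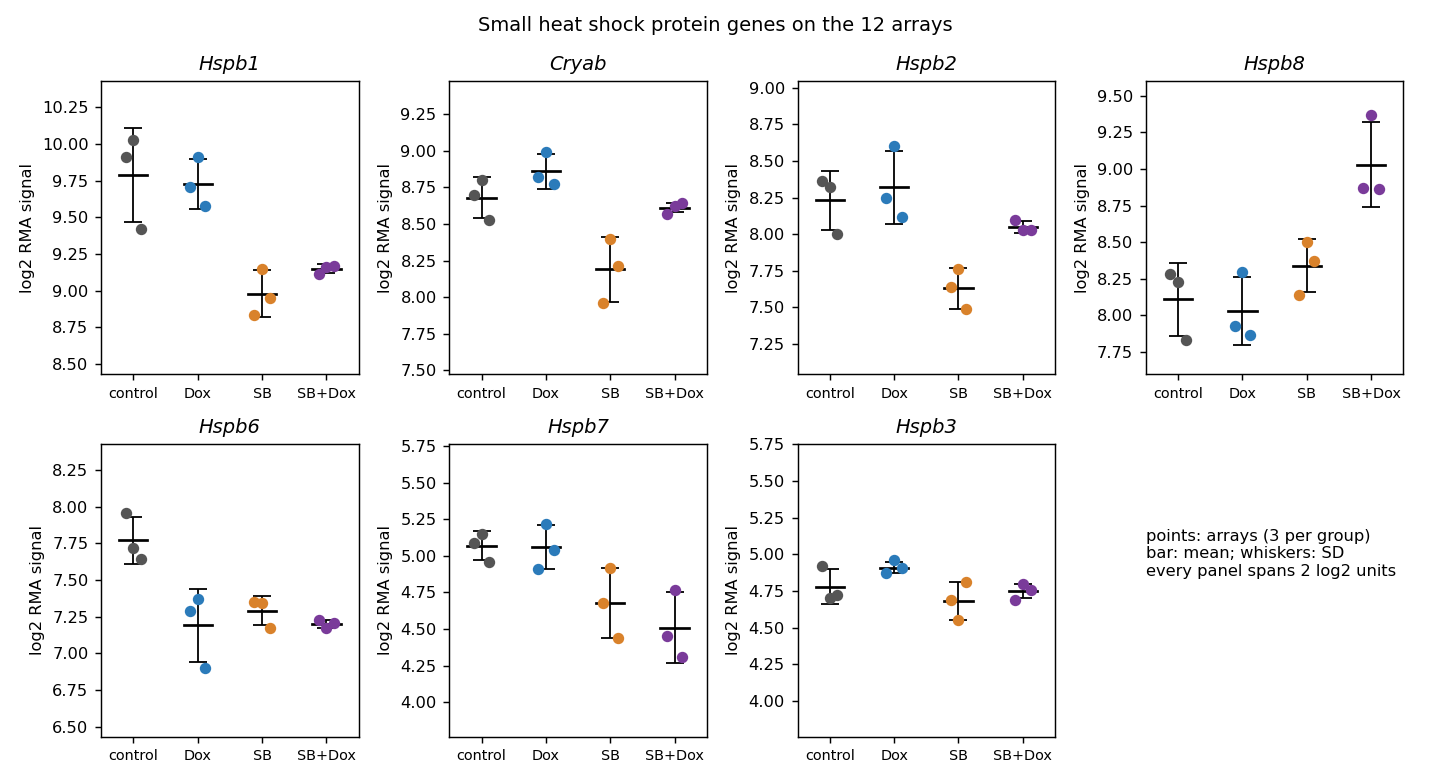
Log2 RMA signal of the 7 genes (vertical axes, each spanning 2 log2 units) in the 4 groups, with a point per array, the mean as a bar and the SD as whiskers. SB arrays of Hspb1, Cryab and Hspb2 lie below the control arrays, SB+Dox arrays of Hspb8 lie above all others, and control arrays of Hspb6 lie above all others.

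Hspb1 was lower in both groups that received the inhibitor. Its log2 signal was 9.91, 10.03 and 9.42 in control and 9.71, 9.91 and 9.58 in Dox, against 8.83, 9.15 and 8.95 in SB and 9.11, 9.16 and 9.17 in SB+Dox (replicates 1 to 3). All 6 arrays with SB203580 lay below all 6 without it. SB arrays averaged 1.75-fold below control (log2 change -0.81, SE 0.14, adjusted p = 0.00286). SB+Dox arrays averaged 1.5-fold below Dox (-0.59, SE 0.14, adjusted p = 0.0138) and 1.56-fold below control (-0.64, adjusted p = 0.0151). Doxycycline left it within the spread of the arrays, with a change of -0.06 without the inhibitor (95% interval -0.36 to 0.25, adjusted p = 0.946) and 0.17 with it (95% interval -0.14 to 0.47, adjusted p = 0.534).

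The fall of Hspb1 in SB against control passed with any 1 array left out (highest adjusted p = 0.0168). That in SB+Dox against Dox did not pass without Dox replicate 2 (adjusted p = 0.0696) or SB+Dox replicate 1 (0.0501), or with every cluster of the table tested (0.0505). SB+Dox against control did not pass without control replicate 1 (0.0724), control replicate 2 (0.0765), SB+Dox replicate 1 (0.0549) or SB+Dox replicate 2 (0.0525), or with every cluster tested (0.0613). The second Hspb1 cluster gave the same picture, with a log2 change of -0.82 in SB against control (SE 0.14, adjusted p = 0.00247) and 0.17 in SB+Dox against SB (adjusted p = 0.534). The clusters differed by 0.17 to 0.21 on every array (r = 0.9995 over 12 arrays). RefSeq also lists a pseudogene, Hsp25-ps1, and the probe positions were not used here, so signal of the copy and of Hspb1 cannot be told apart.

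Cryab and Hspb2 fell with the inhibitor and stood near control again when doxycycline was added, though below the Dox arrays. Cryab encodes αB-crystallin, a chaperone of desmin and actin filaments, and Hspb2 encodes a muscle protein that binds the myotonic dystrophy kinase DMPK. The genes are neighbours on chromosome 9, and in the RefSeq table (GRCm38.p6) the span of Hspb2 lies inside that of Cryab.

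Cryab measured 8.70, 8.80 and 8.53 in control and 8.82, 8.99 and 8.77 in Dox, against 7.96, 8.40 and 8.21 in SB and 8.57, 8.62 and 8.64 in SB+Dox (log2). The SB arrays lay below those of every other group. Cryab averaged 1.4-fold less in SB than control (log2 change -0.49, SE 0.12, adjusted p = 0.0184) and 1.34-fold higher in SB+Dox than in SB (0.42, SE 0.12, adjusted p = 0.0373). SB+Dox differed from control by -0.07, with a 95% interval of -0.31 to 0.18 (adjusted p = 0.865). Without the inhibitor, doxycycline changed it by 0.18 (adjusted p = 0.579). All SB+Dox arrays lay below the Dox arrays, with a change of -0.25 that did not pass (adjusted p = 0.241). The interaction of Cryab was 0.24 (adjusted p = 0.611).

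Both Cryab calls depended on single arrays. The adjusted p of the fall was 0.0647 without control replicate 1, 0.0892 without control replicate 2, 0.0791 without SB replicate 1, 0.0588 with every cluster tested and 0.0686 with the 2 groups fitted alone. The rise did not pass without control replicate 1 (0.0531), Dox replicate 1 (0.0517), SB replicate 1 (0.163), SB+Dox replicate 1 (0.0755), SB+Dox replicate 2 (0.0993) or SB+Dox replicate 3 (0.133), after quantile normalization (0.0555), with every cluster tested (0.0915) or with the 2 groups fitted alone (0.0812).

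Hspb2 measured 8.36, 8.32 and 8.0 in control and 8.25, 8.60 and 8.12 in Dox, against 7.64, 7.76 and 7.49 in SB and 8.10, 8.03 and 8.03 in SB+Dox (log2). As for Cryab, the SB arrays were the lowest 3 of the 12. The SB mean lay 1.51-fold below control (log2 change -0.60, SE 0.13, adjusted p = 0.0117), which did not pass once control replicate 1 (0.0612) or control replicate 2 (0.0543) was dropped. The change from SB to SB+Dox was 0.42 (SE 0.13), the same size as for Cryab, and did not pass (adjusted p = 0.0671). SB+Dox differed from control by -0.17, with a 95% interval of -0.45 to 0.10 (adjusted p = 0.604). Against Dox the change was -0.27 (adjusted p = 0.262), with all SB+Dox arrays below the Dox arrays by a gap of 0.02. The interaction of Hspb2 was 0.33 (adjusted p = 0.529).

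The change of Hspb2 from SB to SB+Dox lay close to the threshold. It passed with the replicate block (adjusted p = 0.0219). It also passed with arrays centred on the median (0.49, adjusted p = 0.0224), with dim clusters left out (0.0497), with trend and robust moderation (0.0438), with the 2 groups fitted alone (0.045), and without control replicate 3 (0.0456) or Dox replicate 2 (0.0383).

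Hspb8 was highest where the inhibitor and doxycycline were combined. Its protein works with the cochaperone BAG3 to send damaged client proteins such as filamin to autophagy. Hspb8 measured 8.28, 8.23 and 7.83 in control and 7.93, 8.30 and 7.87 in Dox, against 8.14, 8.50 and 8.37 in SB and 8.87, 9.37 and 8.86 in SB+Dox (log2). All 3 SB+Dox arrays lay above the other 9, and the other 3 groups overlapped.

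SB+Dox exceeded Dox 2-fold (log2 change 1.00, SE 0.16, adjusted p = 8.82e-04) and control 1.9-fold (0.92, SE 0.16, adjusted p = 0.00344). Both calls held with any 1 array left out (highest adjusted p = 0.00647 and 0.0205). Against SB it was 1.62-fold higher (0.70, SE 0.16, adjusted p = 0.017), a call lost without SB replicate 1 (0.083) or SB+Dox replicate 2 (0.0806) and with every cluster tested (0.064). Its change was 0.22 with the inhibitor alone (95% interval -0.13 to 0.58, adjusted p = 0.553) and -0.08 with doxycycline alone (95% interval -0.43 to 0.27, adjusted p = 0.929). The interaction was 0.78 (SE 0.23, 95% interval 0.28 to 1.27) and did not pass over all clusters (adjusted p = 0.172). It passed with array weights (0.86, adjusted p = 0.0436) and with the replicate block (adjusted p = 0.0338). The block uses the replicate numbers of all 4 groups, though only SB and SB+Dox arrays were taken as paired.

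Hspb6 was lower in each of the 3 treated groups than in control. It encodes HSP20, a partner of actin and 14-3-3 proteins in muscle. The signal was 7.96, 7.72 and 7.64 in control and 7.29, 7.37 and 6.90 in Dox, against 7.35, 7.34 and 7.17 in SB and 7.23, 7.17 and 7.21 in SB+Dox (log2). All 9 treated arrays lay below the 3 control arrays, and the treated groups overlapped each other.

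Hspb6 averaged 1.5-fold less in Dox than control (log2 change -0.59, SE 0.12, adjusted p = 0.00868), the one member that doxycycline alone changed. It was 1.4-fold lower in SB (-0.49, adjusted p = 0.0255) and 1.49-fold lower in SB+Dox (-0.57, adjusted p = 0.0115). All 3 calls were lost without control replicate 1, the highest array, when the adjusted p was 0.0555 (Dox), 0.126 (SB) and 0.0649 (SB+Dox). The call in SB was also lost without control replicate 2 (0.0573), SB replicate 2 (0.0667) or SB replicate 3 (0.066) and with every cluster tested (0.0771), and that in SB+Dox without SB+Dox replicate 2 (0.0518). Adding doxycycline to the inhibitor changed Hspb6 by -0.09 (95% interval -0.35 to 0.17, adjusted p = 0.726), and adding the inhibitor to doxycycline by 0.01 (95% interval -0.25 to 0.27, adjusted p = 0.968). The latter was -0.04 after quantile normalization and -0.01 with array weights. The interaction was 0.50 (SE 0.17, adjusted p = 0.239).

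Hspb7 and Hspb3 gave low signals on these arrays. The array medians over all tested clusters lay between 5.29 and 5.44, and both genes stayed below them. No background level was set against them here. Hspb7 encodes a chaperone of heart and skeletal muscle that binds filamin C, and Hspb3 a muscle protein that pairs with HSPB2.

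Hspb7 measured 5.09, 5.15 and 4.96 in control and 4.91, 5.22 and 5.04 in Dox, against 4.68, 4.92 and 4.44 in SB and 4.45, 4.77 and 4.31 in SB+Dox (log2). It fell by 0.55 in SB+Dox against Dox (SE 0.14, adjusted p = 0.0167) and by 0.56 in SB+Dox against control (SE 0.14, adjusted p = 0.0283). Its change in SB against control was -0.38 (adjusted p = 0.137), with all 3 SB arrays below the 3 control arrays by a gap of 0.04. The call against Dox was lost without Dox replicate 2 (0.0805), Dox replicate 3 (0.0504), SB+Dox replicate 1 (0.0644) or SB+Dox replicate 3 (0.0875) and with every cluster tested (0.0571). The call against control was lost without control replicate 1 (0.0933), control replicate 2 (0.103), SB+Dox replicate 1 (0.0966) or SB+Dox replicate 3 (0.14) and with every cluster tested (0.0908). With doxycycline alone the change was -0.01 (adjusted p = 0.996), and it was 0.02 with centred arrays and 0.01 after quantile normalization.

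Hspb3 lay between 4.55 and 4.96 on all 12 arrays, with group means of 4.78 in control and 4.91 in Dox, against 4.68 in SB and 4.75 in SB+Dox (log2). None of its 6 comparisons passed, and the closest was SB+Dox against Dox at -0.16 (SE 0.10, adjusted p = 0.373).

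**Figure D2:**
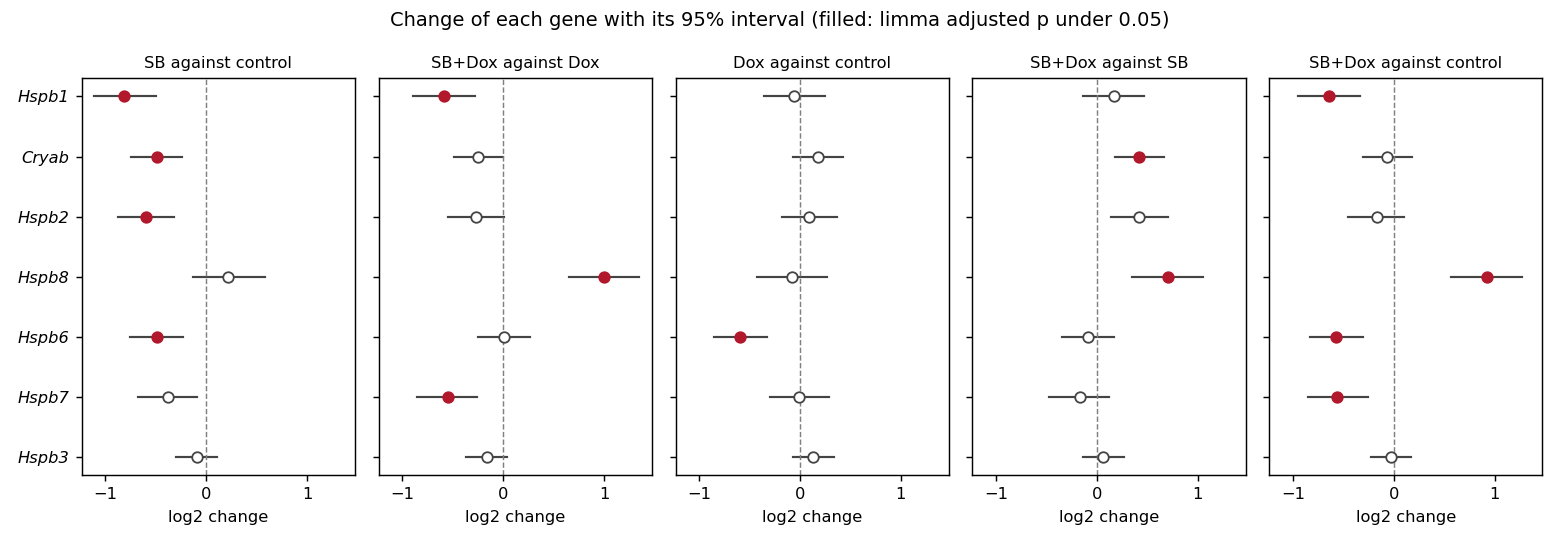
Log2 change of the 7 genes (horizontal axis) with its 95% interval in the 5 comparisons of groups, with filled points past the limma adjusted p of 0.05. Hspb1 lies at -0.81 in SB against control and -0.59 in SB+Dox against Dox, while Hspb8 lies at 0.22 and 1.00 in the same comparisons.

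The genes can be set beside Hspb1 by taking the log2 difference of the pair on each array. These 3 pairs were chosen after the values were seen. From SB to SB+Dox, the change of Cryab exceeded that of Hspb1 by 0.26 on the log2 scale, that of Hspb2 by 0.25 and that of Hspb8 by 0.53, and in none of the 3 pairs did the arrays of SB and SB+Dox overlap. The exact two-sided permutation p was 0.1 for each, the smallest that 3 against 3 arrays allow (adjusted 0.12 over the 6 differences computed). From control to SB, the log2 change of Hspb8 lay 1.03 above that of Hspb1 (exact permutation p = 0.1). Cryab and Hspb2 fell less than Hspb1, by 0.32 (exact permutation p = 0.1) and 0.21 (exact permutation p = 0.2).

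Across the 12 arrays Cryab and Hspb2 had the highest correlation of the 21 pairs (r = 0.91), followed by Hspb1 with Hspb2 (0.87) and with Cryab (0.83). Hspb8 correlated at -0.39 with Hspb1 and -0.04 with Cryab. After the group means were removed, Cryab and Hspb2 correlated at 0.62, below Hspb1 with Hspb2 (0.82) and Hspb6 with Hspb2 (0.80). On the same scale Hspb8 correlated at 0.75 with Hspb1 and 0.72 with Cryab, and Hspb1 at 0.86 with Cryab. These are descriptions over arrays that share groups and array-wide shifts.

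**Figure D3:**
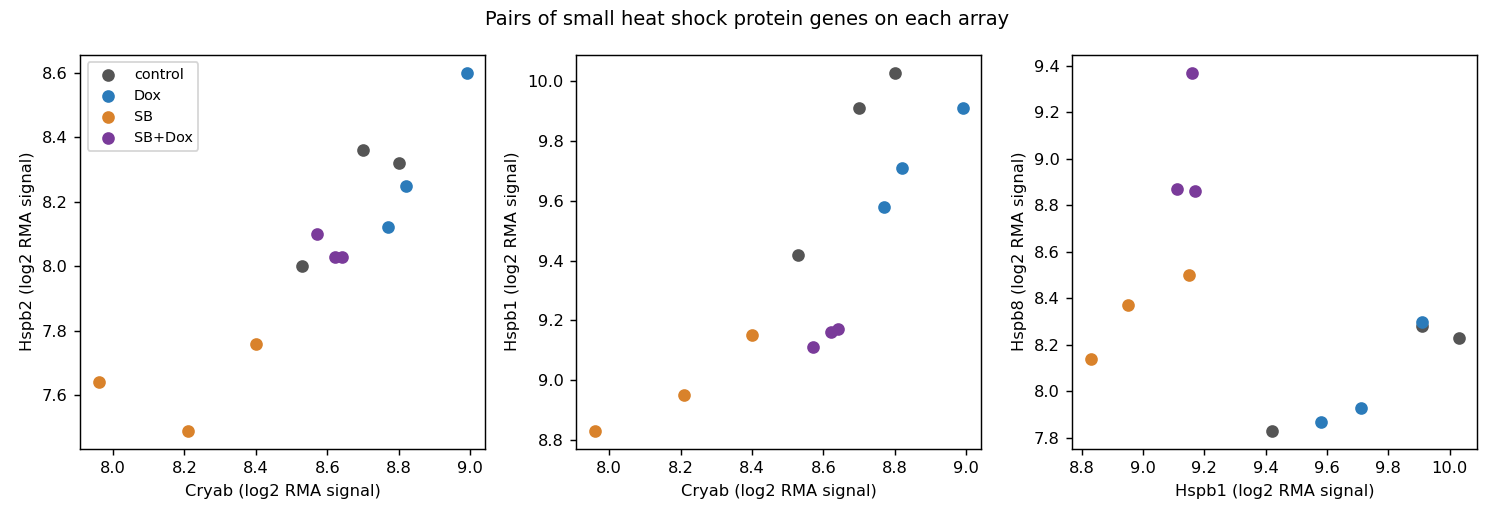
Log2 RMA signal of Hspb2 against Cryab, Hspb1 against Cryab and Hspb8 against Hspb1, with a point per array coloured by group. Hspb2 and Cryab follow a common line, the SB+Dox arrays sit at 9.11 to 9.17 in Hspb1 with Cryab at 8.57 to 8.64, and the SB+Dox arrays stand apart at 8.86 to 9.37 in Hspb8.

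For each of the 6 members with a call, the 3 genes with the most similar profile were taken from 847 genes whose group means spanned at least 1 on the log2 scale, by Pearson correlation over the 12 arrays. Hspb1 was nearest to Megf10 (r = 0.95), Lsp1 (0.94) and Mss51 (0.93). Megf10, a receptor of satellite cells, averaged 8.66 in control and 8.69 in Dox, against 7.36 in SB and 7.49 in SB+Dox. Cryab was nearest to Cacng1, a subunit of the muscle calcium channel, to the fusion protein gene Mymk and to Sync, which encodes a desmin-binding protein (0.96 each). Mymk averaged 10.88 in control and 11.65 in Dox, against 9.26 in SB and 11.02 in SB+Dox. Hspb2 was nearest to Lpar1 and Cacng1 (0.93 each) and Itgb1bp2 (0.91).

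Hspb8 was nearest to St3gal1, Lynx1 and Slc37a2 (0.95 each), and St3gal1, a sialyltransferase gene, averaged 7.45 in control and 7.40 in Dox, against 7.80 in SB and 8.41 in SB+Dox. Hspb6 was nearest to Aspn (0.89), Igfbp2 (0.86) and Ccl9 (0.85). Aspn, which encodes a matrix proteoglycan, averaged 6.01 in control and 3.87 in Dox, against 4.47 in SB and 4.12 in SB+Dox. Hspb7 was nearest to the determination factor gene Myod1 (0.89), Adamts16 (0.87) and Pkp1 (0.86), and Myod1 averaged 10.29 in control and 10.39 in Dox, against 9.73 in SB and 9.25 in SB+Dox.

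The other chaperone families were described from lists written from general knowledge. In SB against control, 2 of 9 measured HSP70 and HSP110 genes rose and 1 fell, with a list median of 0.05. Over all clusters 2.51% rose and 3.87% fell, with a median of 0.03. Hspa4l, a nucleotide exchange factor of the HSP110 type, was 1.57-fold higher (log2 change 0.65, adjusted p = 0.00379) and Hspa14 1.38-fold higher (0.47, adjusted p = 0.00659). The mitochondrial HSP70 gene Hspa9 fell by 0.37 (adjusted p = 0.039), a call that failed with any 1 array left out except Dox replicate 2, Dox replicate 3, SB replicate 3 and SB+Dox replicate 3, with every cluster tested (0.0877) and with the 2 groups fitted alone (0.101). Of 17 HSP40 genes and HSP70 cochaperones, 0 passed limma (4 at an unadjusted p under 0.05, beside 17.3% of all clusters), the largest change being -0.42 in Dnajb4 (adjusted p = 0.242). Dnajb4 passed without control replicate 3 (-0.64, adjusted p = 0.0422) and with array weights (-0.65, adjusted p = 0.0108), and ranged from -0.64 to -0.26 with 1 array left out. Among 9 genes of HSP90 and its cochaperones 1 rose, Hsp90aa1, a stress-responsive HSP90, by 1.45-fold (adjusted p = 0.00398). Of 10 chaperonin genes and 3 heat shock factors, 0 and 0 passed (1 and 0 unadjusted), with the largest changes in Cct7 (0.20) and Hsf4 (-0.18). Cct7 passed after quantile normalization (0.26, adjusted p = 0.0486).

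In SB+Dox against SB, Hspa9 was 1.47-fold higher (adjusted p = 0.0037) as the 1 called HSP70 gene of 9. Over all clusters 4.4% rose and 2.71% fell in that comparison. Of the HSP40 genes and cochaperones 2 of 17 rose, Dnaja3, a mitochondrial HSP40, by 1.45-fold (adjusted p = 0.00575) and Dnajb2 by 1.31-fold (adjusted p = 0.028). Fkbp4 was the 1 called gene of 9 in the HSP90 list, at 1.24-fold (adjusted p = 0.0384). The Dnajb2 call failed without either of SB replicates 1 and 2 or any 1 SB+Dox array, and the Fkbp4 call failed with any 1 array left out except control replicate 3, Dox replicate 1, Dox replicate 3 and SB replicate 3. Neither held with every cluster tested (0.0621 and 0.0611), and Fkbp4 also failed after quantile normalization (0.15) and with the 2 groups fitted alone (0.103). Chaperonins and heat shock factors had 0 limma calls (3 and 0 at an unadjusted p under 0.05, beside 20.9% of all clusters), with the largest changes in Hspd1 (0.27) and Hsf5 (-0.26). Hsf5 passed without SB replicate 3 (-0.45, adjusted p = 0.0402) and ranged from -0.45 to -0.13 with 1 array left out. It averaged 3.56 over the 12 arrays, below the array medians, and Hsf1 was not among the heat shock factors measured. The remaining family members on the array, Cryaa, Hspb9 and Odf1, had 0 calls in any comparison, and Cryaa changed by 0.16 in SB and -0.23 from SB to SB+Dox (adjusted p = 0.445 and 0.176). Their signals were low, with means over the 12 arrays of 5.04, 5.08 and 4.30, below the array medians.

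Partners and clients of Hspb8 and Cryab in muscle moved in part with Cryab and Hspb2. Of 11 genes for chaperone-assisted autophagy and cytoskeletal clients, 3 fell and 0 rose in SB against control (median -0.19). Of all clusters 3.87% fell and 2.51% rose (median 0.03). In SB+Dox against SB 4 of the 11 rose and 0 fell (median 0.19), beside 4.4% and 2.71% of all clusters (median -0.04). Flnc, filamin C, averaged 10.32 in control and 10.44 in Dox, against 9.52 in SB and 10.36 in SB+Dox. It was 1.73-fold lower in SB (adjusted p = 0.00264) and 1.78-fold higher in SB+Dox than in SB (adjusted p = 0.00201). Ttn, titin, was 1.95-fold lower and then 2.27-fold higher (adjusted p = 0.0148 and 0.00399), and Synpo2, an actin-binding Z-disc protein, fell by 0.56 in SB (adjusted p = 0.0143). The falls of Ttn and Synpo2 did not pass without control replicate 1 (adjusted p = 0.0664 and 0.0727), control replicate 2 (0.0594 and 0.0521), SB replicate 1 (0.0747 and 0.0545) or SB replicate 2 (0.0841 and 0.0547), or with every cluster tested (0.0688 and 0.054). Dmpk, the kinase that HSPB2 binds, rose 1.8-fold from SB to SB+Dox (adjusted p = 9.05e-04). Bag3, the partner of HSPB8, did not follow Hspb8, with means of 7.79 in control and 7.90 in Dox, against 7.96 in SB and 7.93 in SB+Dox. Its changes were 0.17 in SB (adjusted p = 0.537) and -0.03 from SB to SB+Dox (adjusted p = 0.908, or 0.03 with centred arrays). Des, desmin, changed by -0.19 and 0.31 (adjusted p = 0.431 and 0.114).

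**Figure D4:**
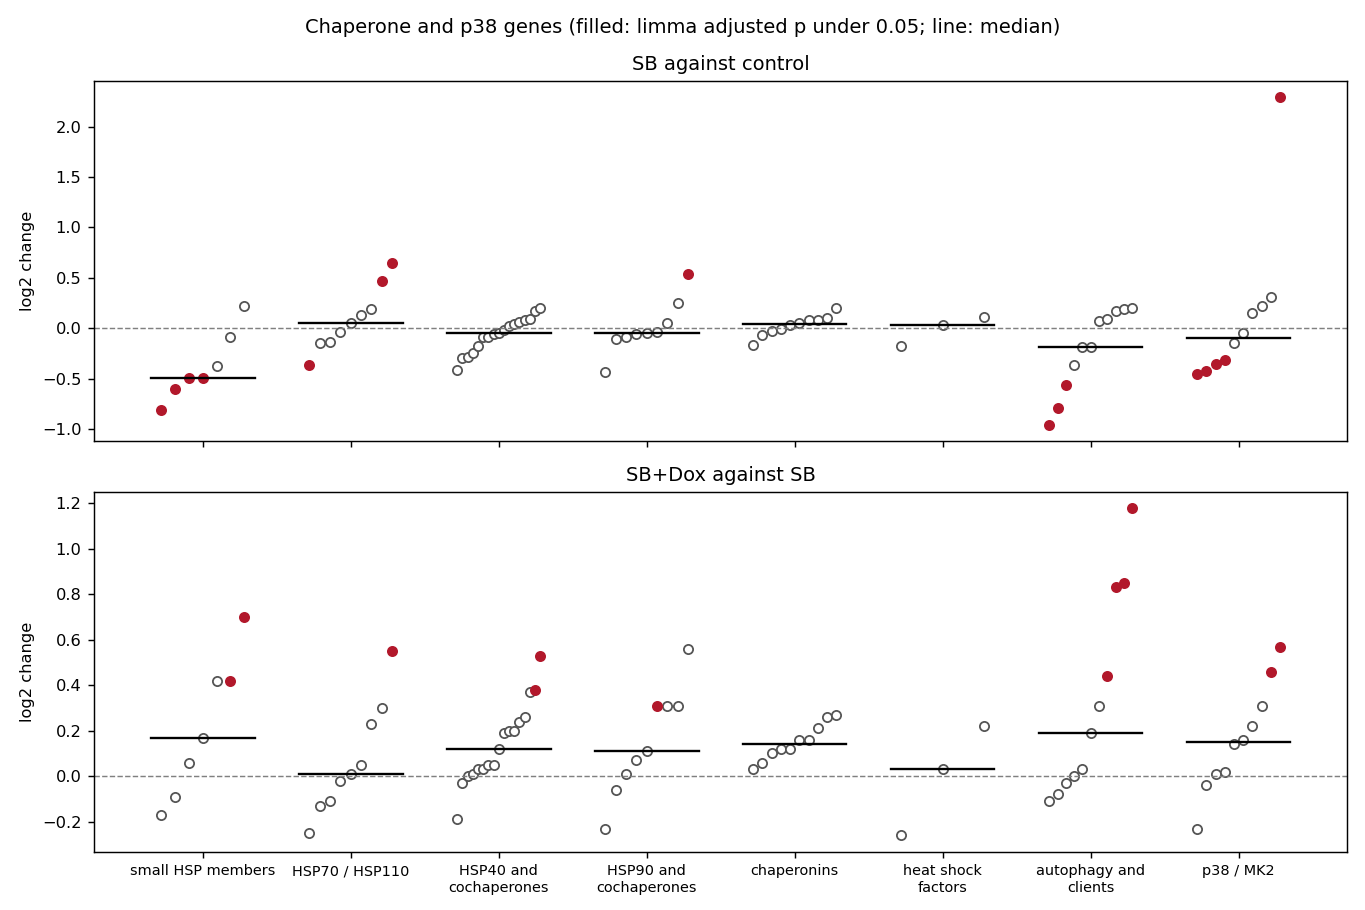
Log2 change of each gene (points) in the 7 members and the chaperone, client and p38 lists, in SB against control (top) and SB+Dox against SB (bottom), with filled points past the limma adjusted p of 0.05 and lines at the medians. In SB against control the median of the 7 members is -0.49, and that of the HSP70 and HSP110 list is 0.05.

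In the kinase pathway above Hspb1, 1 of 10 listed genes rose and 4 fell in SB against control (median -0.10). Of all clusters 2.51% rose and 3.87% fell (median 0.03). Map2k6, an activating kinase of p38, was 4.9-fold higher (adjusted p = 2.34e-07). Mapkapk5 fell by 0.46 (adjusted p = 0.00836) and Mapk12 by 0.43 (adjusted p = 0.0475), and Mapkapk2, the gene of MK2, fell by 0.32 (adjusted p = 0.0341). Mapk11, the remaining called fall, changed by -0.36 (adjusted p = 0.0201). The Mapkapk2 call was lost without control replicate 1 (0.153), control replicate 2 (0.094), SB replicate 1 (0.0856), SB replicate 2 (0.116) or SB+Dox replicate 1 (0.0505), after quantile normalization (0.0539), with every cluster tested (0.0611) and with the 2 groups fitted alone (0.127). That of Mapk12 failed with any 1 array left out except control replicate 3, SB replicate 3, SB+Dox replicate 2 and SB+Dox replicate 3, with the replicate block (0.0513), with every cluster tested (0.12) and with the 2 groups fitted alone (0.101). In SB+Dox against SB, Mapkapk5 was 1.48-fold higher (adjusted p = 0.00217) and Mapk12 1.37-fold higher (adjusted p = 0.0331), the 2 called of 10. Of all clusters 4.4% rose and 2.71% fell in that comparison. The Mapk12 rise was lost without SB replicate 1 (0.115), SB replicate 2 (0.145), SB+Dox replicate 1 (0.0755) or SB+Dox replicate 3 (0.178), with every cluster tested (0.0882) and with the 2 groups fitted alone (0.081). Mapkapk2 changed by 0.14 (adjusted p = 0.391).

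The skeletal muscle markers moved only in part with Cryab and Hspb2. In SB against control 6 of 10 fell and 1 rose (median -0.56), beside 3.87% and 2.51% of all clusters (median 0.03). In SB+Dox against SB 4 rose and 0 fell (median 0.48), beside 4.4% and 2.71% of all clusters (median -0.04). The markers' mean signal was 9.17 to 9.70 on the SB arrays and 10.00 to 10.16 on the SB+Dox arrays. The other 6 did not pass in the latter, and among them the means of Myod1 (9.73 and 9.25), Cdh15 (9.71 and 9.55) and Myf5 (7.45 and 7.11) were lower in SB+Dox than SB, 3 genes named after their values were seen. Mymk was 3.08-fold lower in SB and 3.39-fold higher in SB+Dox than in SB (adjusted p = 6.54e-05 and 7.93e-05), and embryonic myosin (Myh3) was 3.1-fold higher in the latter (adjusted p = 0.00177). Ckm, muscle creatine kinase, was 1.95-fold lower and then 2-fold higher (adjusted p = 0.0292 and 0.0214). The Ckm fall was lost without control replicates 1 or 2 (0.0594 and 0.133) or SB replicates 1 or 2 (0.101 and 0.0696), and its rise without SB replicates 1 or 2 (0.0774 and 0.0529) or SB+Dox replicate 3 (0.118). Both also missed the threshold with trend and robust moderation (0.0683 and 0.0513), with the 2 groups fitted alone (0.0656 and 0.0754) and with every cluster tested (0.11 and 0.0843). In bulk RNA, fewer cells that express a gene and less RNA per cell cannot be told apart.

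Of 6 smooth muscle markers 2 fell in SB against control, beside 3.87% of all clusters. Actg2 fell by 4.36-fold (adjusted p = 7.21e-06) and Acta2 by 1.51-fold (adjusted p = 0.013). The other 4 did not pass, with log2 changes of 0.08 in Myh11, -0.14 in Cnn1, -0.24 in Smtn and -0.11 in Lmod1. Myh11 and Cnn1 averaged 4.84 and 4.85 over the 12 arrays, below the array medians. The list mean was 7.26 to 7.45 on control arrays and 6.77 to 6.88 on SB arrays. The Acta2 call was lost without control replicate 2 (0.0636) or SB replicate 1 (0.0614) and with every cluster tested (0.0524). Actg2 rose 1.66-fold from SB to SB+Dox (adjusted p = 0.0194), a call lost without SB replicate 1 (0.0984) or SB+Dox replicate 3 (0.112) and with every cluster tested (0.0724). The part of these markers in the fall of Hspb1 and Cryab was not tested. Markers of adipocytes, osteoblasts, macrophages and endothelium had 0 calls in both comparisons, and their list means stayed between 3.78 and 4.69 on all 12 arrays, below the array medians. Their largest changes were 0.15 in Cidec, 0.09 in Alpl, 0.07 in Adgre1 and 0.16 in Tie1 in SB against control, and -0.19 in Cidec, -0.33 in Ibsp, -0.09 in Ptprc and -0.19 in Tie1 in SB+Dox against SB.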

How the data were processed

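The deposited table holds a log2 value for each transcript cluster on each array, made by the authors with RMA (Affymetrix Expression Console), per the submitters' processing notes. Versions and genome build are not given in the sources used here. It held 35557 clusters on 12 arrays, with 0 missing values. Genes came from the platform annotation: 21789 clusters carried 1 symbol and were tested, and 1621 with several and 12147 with none were left out. Limma 3.58.1 in R 4.3.3 fitted 1 mean per group to all arrays (eBayes, 8 residual and 6.56 prior degrees of freedom), with Benjamini-Hochberg adjustment over all 21789 clusters and no minimum fold. Folds are 2 to the power of the log2 change. The fit was tested on simulated data for SB against control, with 50 changed clusters at each fold. It called 2% of 1.25-fold, 42% of 1.5-fold, 88% of 2-fold and 100% of 4-fold changes, and 2 of 21589 unchanged clusters. A gene without a call can therefore still have changed, by 1.5-fold or, less often, by 2-fold. Far fewer clusters were changed in the simulation than the 1390 called in the data, so these rates need not carry over. Arrays have no depth, and their number limits the precision.

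The members and gene lists were chosen with earlier results of these data known. Hspa1b, Hsp90ab1, Hsf1, Bglap, Runx2 and Hbb-bs had no cluster with that symbol alone and are not analysed here. Named genes were all members, up to 3 called genes per list in SB against control and in SB+Dox against SB, or the one with the largest change, and the 3 genes most like each called member. Bag3, Des and Mapkapk2 were also named, after their values were seen, for their link to a member. Mapk11 was named as the remaining called fall of its list and was not followed through the other settings. Nor were the Synpo2 changes with SB+Dox, the Dmpk changes against control and the uncalled smooth muscle markers. Correlations of deviations between same-numbered arrays were 0.44, 0.19 and 0.49 for SB and SB+Dox, which was taken as pairing. Each other pair of groups examined had a value under 0.1, and Dox with SB was not examined. For Dox and SB+Dox the values were 0.09, 0.28 and 0.15, above those of arrays with unlike numbers, and were not taken as pairing. Alternatives were other scalings, filters, moderation, weights, a replicate block and leaving out each array.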

Additional observations from a re-analysis of the deposited data

How the results depend on the processing

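The number of members called was recomputed under 9 other settings and with each array left out. With 1 array left out it ranged from 1 to 4 in SB against control (4 in the main setting), 0 to 3 in SB+Dox against SB (2), 1 to 3 in SB+Dox against Dox (3), 0 to 1 in Dox against control (1) and 1 to 4 in SB+Dox against control (4). With all 35557 clusters of the table tested, it was 2, 0, 1, 1 and 2 in the same order. After quantile normalization it was 1 in SB+Dox against SB. The interaction count of 0 became 1 with array weights and 1 with the replicate block (Hspb8, 0.78, adjusted p = 0.0338). The interaction spans all 4 groups, and the numbers were taken to pair only SB with SB+Dox. The replicate block also brought Hspb7 past the threshold in SB against control (-0.38, adjusted p = 0.0256), where the numbers do not pair the arrays. Beside these and Hspb2 in SB+Dox against SB it changed no member's call. Of the genes followed from the lists it changed 1, Mapk12 in SB against control (-0.43, adjusted p = 0.0513).

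Over the 875 values of members, 799 kept direction and side of the threshold, 45 lost the call, 10 gained it and 21 changed sign, none of these with a call. The sign changes without array removal were Hspb6 in SB+Dox against Dox (-0.04 after quantile normalization, -0.01 with array weights), Hspb7 in Dox against control (0.02 centred, 0.01 quantile), and Hspb3 in SB+Dox against control (0.02, quantile) and in the interaction (0.02 quantile, 0.07 array weights). With 1 array left out, Dox against control ranged from -0.24 to 0.07 for Hspb1, -0.22 to 0.00 for Hspb8, -0.04 to 0.20 for Hspb2 and -0.09 to 0.06 for Hspb7, Hspb6 in SB+Dox against Dox from -0.13 to 0.11, and Hspb3 from 0.00 to 0.13 in SB+Dox against SB and -0.07 to 0.04 in SB+Dox against control. Bag3 in SB+Dox against SB was 0.03 centred and -0.09 to 0.01 with 1 array left out. Adgre1 and Alpl in SB ranged from -0.01 to 0.13 and -0.02 to 0.24, and Ptprc in SB+Dox against SB from -0.21 to 0.01 (0.01, quantile). The causes were not tested.

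Among the settings that tested the same 21789 clusters, single arrays left out included, there were 779 to 2794 calls in SB against control (1390 in the main setting), 724 to 3076 in SB+Dox against SB (1550), 1614 to 3019 in SB+Dox against Dox (2265), 744 to 1831 in Dox against control (1156), 644 to 1935 in SB+Dox against control (1146) and 27 to 678 in the interaction (195). With all 35557 clusters tested there were 876 in SB against control, 696 in SB+Dox against control and 6 in the interaction. The interaction split of 158 higher and 37 lower was 50 and 29 after quantile normalization.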
